A study of Mus musculus with 2 samples.

Results

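Chemokines are small secreted proteins that direct the movement of cells, and they are sorted by the spacing of their first cysteines into CC ligands (Ccl genes) and CXC ligands (Cxcl genes). The members described here are all genes on a mouse microarray whose name is Ccl, Cxcl, Ccr or Cxcr followed by a number and at most a final letter, taken by name and not by any measured value. They came to 52 genes, read by 63 of the array's 39429 probes and 72 spots: 22 CC ligands, 13 CXC ligands, 10 CC receptors and 7 CXC receptors. Of these, 39 genes stood well above background in at least one genotype's channel of both arrays and entered the test, and 13 did not. A spot counts as well above background by a mark that the scanner software sets in each channel.

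RNA came from the ureter of NMRI mouse embryos at E18.5. Rbpj-cKO embryos had the genotype Tbx18(cre/+);Rbpj(fl/fl), so that a cre recombinase under control of Tbx18, a gene of the ureteric mesenchyme, acts on floxed alleles of Rbpj, the DNA-binding partner of Notch signalling. Controls were Rbpj(fl/?), with at least 1 floxed allele and no cre listed. Each of 2 arrays paired an Rbpj-cKO and a control sample of one sex. On the male array the Rbpj-cKO RNA was red (AlexaFluor647), and on the female array it was green (AlexaFluor555), so sex and dye orientation cannot be told apart. The cre acts in 1 compartment of a tissue that also holds urothelium, vessels and immune cells, and the RNA is a mixture of them all. The number of embryos behind each RNA is not stated in the labels, so no p-value here can be read as a spread between embryos. The p-values come from 2 arrays and draw on 1 residual degree of freedom from a gene's own spread between them. They also draw on 10.3 prior degrees of freedom from the variance of all features tested.

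Chemokine receptors are G protein coupled receptors carried mostly by leukocytes. Inflammatory ligands are made on demand and draw monocytes, eosinophils, neutrophils or T cells, while homeostatic ligands such as Cxcl12 and Ccl21a are made steadily by stroma and vessels. Ccl11, also called eotaxin, draws eosinophils through the receptor Ccr3 and lies in a cluster with Ccl2, Ccl7, Ccl12, Ccl8 and Ccl1 on mouse chromosome 11.

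Because Ccl11 has close relatives, the probe sequences are shown first, as 30 of each probe's 60 bases, 5′ to 3′. In the first 4, capitals mark the longest run of bases shared between the Ccl11 probe and a relative's probe. For Ccl11 itself this is the run it shares with the Ccl2 probe.
Ccl11: TAGGAGTaactgaggataatagcagcttat
Ccl2: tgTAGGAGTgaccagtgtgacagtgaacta
Ccl7: cacggtcctaagggaTAGGAGctgtctgta
Ccl12: tattatgatatctaaaaagagaTGTTTTta

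The Ccl11 probe shared at most 7 bases in a row with the Ccl2 and Ccl24 probes, 6 with Ccl7 and Ccl12, and 5 with Ccl8 and Ccl1. On mm9, the build the files name, it lies at chr11:81876072-81876131 on the plus strand, between the Ccl7 probe (chr11:81860656-81860715, plus) and the Ccl12 probe (chr11:81916764-81916823, plus). The Ccl2 probe lies at chr11:81850650-81850709 and the Ccl8 probe at chr11:81930108-81930167, both on the plus strand, and the Ccl1 probe at chr11:81990168-81990227 on the minus strand. The Ccl24 probe lies outside the cluster at chr5:136046667-136046726 on the minus strand. Which exon or untranslated region each probe lies in was not analysed here.

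Other member probes do share sequence with another gene. The probes of Ccl21a and Ccl21b, near-identical genes for a ligand of lymphatic vessels, overlap over 56 bases with 2 differences, and capitals below mark the one inside the stretch shown. The Cxcl11 probe that represents its gene holds the 20 bases in capitals that 6 probes of other genes also hold.
Ccl21a: atacctaactgaataaaaaGgtgatccagc
Ccl21b: atacctaactgaataaaaaAgtgatccagc
Cxcl11: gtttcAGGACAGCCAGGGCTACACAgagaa

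Ratios of Ccl21a and Ccl21b therefore cannot be told apart. The Cxcl11 probe shared 20 or more bases in a row with 7 probes of other genes in all, so its ratio is uncertain. Its intensity was 110894 (Rbpj-cKO) and 79009 (control) on the male array and 51971 and 58821 on the female array. The other Cxcl11 probe had only 1497 and 1502, and 1013 and 1072. The brighter probe still stands for Cxcl11 in the medians and counts below. One of 3 Ccl27a probes shared such a stretch with the probe of Gm13308, and it was not the one that represents Ccl27a. No other member probe shared 20 bases in a row with a probe of another gene.

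Ccl11 fell in the Rbpj-cKO ureters and was the one member past the test. On the male array its loess-normalised intensity was 1873 in the Rbpj-cKO and 5319 in the control channel, and on the female array 1438 and 4398. Both control values were above both Rbpj-cKO values, and the dye swap left the order the same. The log2 ratio of Rbpj-cKO over control was -1.51 (male) and -1.61 (female), a mean of -1.56 ± 0.08 (SD, n = 2 arrays; SE of the fit 0.19), which is 2.95-fold lower. The adjusted p was 0.0113 with limma (two-sided, Benjamini-Hochberg over 20989 features). Over all features, 18 (0.0858%) were called lower and 9 (0.0429%) higher. The call was lost with signals centred on the median in place of loess (log2 ratio -1.50, adjusted p 0.988), with Agilent's processed signals (-1.60, 0.239), with the deposited series value table (-1.60, 0.246) and with no filter on dim probes (-1.56, 0.0892). In these 4 settings no feature on the array was called, while the log2 ratio of Ccl11 stayed between -1.60 and -1.50 over the 8 alternative ways of processing both arrays. In RNA of a whole tissue, fewer cells that make a transcript and less transcript per cell cannot be told apart.

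The other genes of the chromosome 11 cluster lay much nearer to 0 than Ccl11. Ccl2, which draws monocytes through Ccr2, had intensities of 2850 (Rbpj-cKO) and 2535 (control) on the male array and 2202 and 3291 on the female array. The order of the channels was opposite on the arrays, with log2 ratios of 0.17 and -0.58. Ccl2 was printed as 10 spots per array, which gives the only measure of spot error among the members. The 10 spots ranged from 0.10 to 0.24 on the male array (SD 0.04) and from -0.84 to -0.40 on the female array (SD 0.16), so the arrays did not overlap. The female ratio of -0.58 left out 2 spots marked as outliers.

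Ccl7, another monocyte attractant, had 2511 and 2809 on the male array and 2050 and 2837 on the female array in the Rbpj-cKO and control channels, with log2 ratios of -0.16 and -0.47. Ccl12, a mouse ligand of Ccr2, had 2963 and 3352 and then 2738 and 3849, with log2 ratios of -0.18 and -0.49. Ccl7 and Ccl12 were thus below control on both arrays by similar amounts, and neither passed the test (adjusted p 1.00 with limma for each). Median centring, run instead of loess, gave -0.004 and -0.50 for Ccl7 and -0.01 and -0.53 for Ccl12. The male decrease thus depends on the processing. Ccl8, a ligand of Ccr8 in the mouse, was dim. Its Rbpj-cKO channel was well above background on the female array only, with log2 ratios of -0.05 and -0.35. Ccl1 was not well above background in any channel.

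Ccl24 and Ccl26 are the other eotaxin genes and lie on chromosome 5. Ccl24 had intensities of 3228 (Rbpj-cKO) and 3856 (control) on the male array and 2299 and 3398 on the female array, with log2 ratios of -0.26 and -0.56 and an adjusted p of 1.00 with limma. With median centring Ccl24 had -0.09 and -0.60. Ccl26 was not well above background in any channel. Ccr3, the eotaxin receptor, was dim: its Rbpj-cKO channel was well above background on the female array only, and its log2 ratios were -0.10 and 0.06. The ratio of Ccl11 was below that of each of these relatives on both arrays, and the difference between Ccl11 and its relatives was not itself tested.

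**Figure D1:**
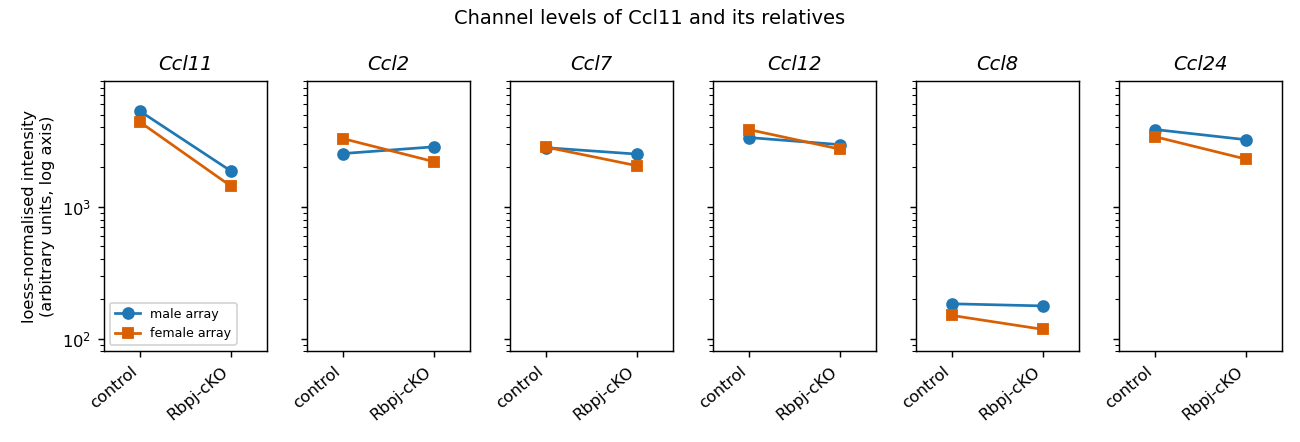
Loess-normalised intensity (arbitrary units, log axis) of Ccl11 and 5 relatives in the control and Rbpj-cKO channel of the male array (circles) and the female array (squares), each line joining the channels of 1 array. Ccl11 drops on both arrays, from 5319 to 1873 and from 4398 to 1438, while Ccl2 runs in opposite directions; levels are not comparable between panels, since each is another probe.

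Marker values of the cells that Ccl11 acts on or could come from are given beside this result. For scale, 708 of all 20989 features tested had an unadjusted p under 0.05 (limma). Of all features, 19.7% were below 0 on both arrays and 21.7% above 0 on both. Of 9 eosinophil markers 4 passed the filter. Siglecf, with 1 of its probes well above background in 1 channel, and Epx, Prg2, Prg3 and Alox15, in none, did not pass it. Ear2 had log2 ratios of 0.41 and 0.62 and Ear1 0.22 and 0.22, while Ear6 (-0.05 and 0.06) and Il5ra (0.09 and -0.34) had unequal signs. The 4 summed to 1712 in the Rbpj-cKO and 1420 in the control channel on the male array and to 1930 and 1458 on the female array, and Ear2 gave the greater part of each sum. None of the 4 passed the test, and 1 had an unadjusted p under 0.05 (limma), on the higher side. All 6 smooth muscle markers lay below 0 on both arrays, with means from -0.58 to -0.13 and medians of -0.43 (male) and -0.19 (female), and none passed the test (1 of 6 had an unadjusted p under 0.05, limma). Their sums were 623872 and 586662 in the Rbpj-cKO channels and 791899 and 673068 in the control channels. The 8 fibroblast and adventitia markers had medians of 0.11 (male) and 0.09 (female), with sums of 807896 and 673532 in Rbpj-cKO and 619116 and 678911 in control. Of the 8, 1 was below 0 on both arrays, 3 were above 0 on both and 4 had unequal signs. The 1 below was Dpt, an adventitial matrix gene, with -0.20 and -1.90. The 3 above were Dcn (0.51 and 0.18), Lum (0.31 and 0.16) and Aldh1a2 (0.02 and 0.13). None of the 8 passed the test, and 1 had an unadjusted p under 0.05 (limma), on the lower side. The part of these cells in the Ccl11 ratio was not tested.

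Over the 39 genes tested, 12 (30.8%) were below 0 on both arrays, against 19.7% of all features, and 8 (20.5%) were above 0 on both, against 21.7%. The other 19 (48.7%) had unequal signs, against 58.6% of all features. Their median log2 ratio was 0.02 (male 0.08, female -0.14), and that of all features was 0.01 on each. In the main processing, at least 1.5-fold lower on both arrays was Ccl11 alone of the members (0.434% of all features). At least 1.5-fold higher on both was Ccl5 alone (0.205%). With processed signals the dim members Ccl8 (-0.92 and -0.64) and Ccr4 (0.65 and 0.72) were also past 1.5-fold on both arrays. The share of all features was not counted in that setting. Cxcl13 alone of the members was at least 1.5-fold away from 0 in opposite directions (1.04%). At an unadjusted p under 0.05 (limma) there were 6 of the 39, 3 of them lower, and 708 of all 20989 features, 399 of them lower.

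**Figure D2:**
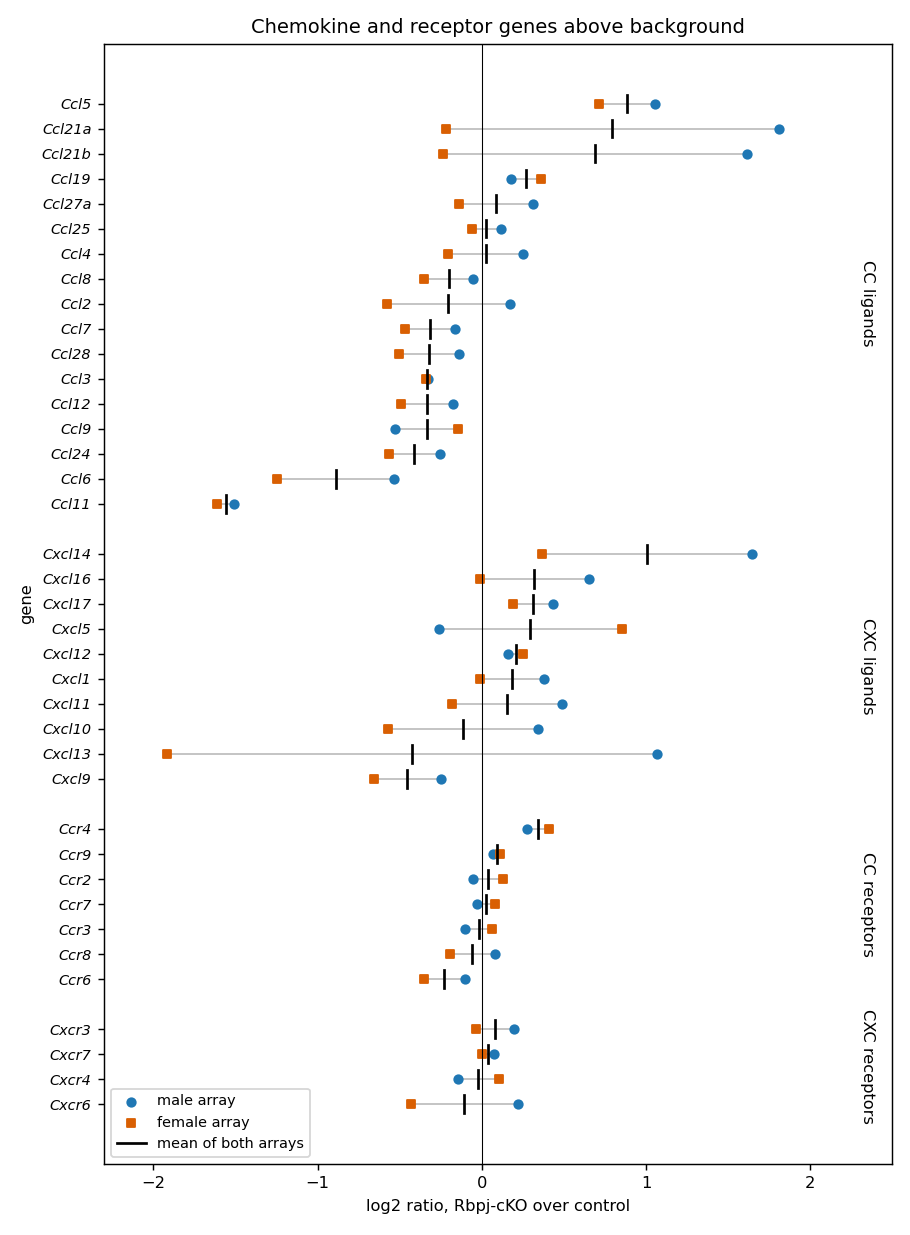
Log2 ratio of Rbpj-cKO over control for 38 member genes tested, grouped by family, on the male array (circles) and the female array (squares), with the mean of both as a black bar. Ccl11 is the lowest mean at -1.56 with its arrays close together, whereas Cxcl13, Ccl21a and Ccl21b have their arrays on opposite sides of 0.

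The CC ligands had a median log2 ratio of -0.21 over 17 genes tested. Against 19.7% of all features, 9 of the 17 lay below 0 on both arrays. Beside Ccl11, Ccl7, Ccl12, Ccl8 and Ccl24, these were Ccl6, Ccl9, Ccl3 and Ccl28. Ccl6, a mouse ligand of Ccr1 made by macrophages, had the second lowest mean of the members, -0.89. Its intensity was 7570 (Rbpj-cKO) and 10947 (control) on the male array and 4738 and 11231 on the female array. Both control values were above both Rbpj-cKO values, but the log2 ratios of -0.53 and -1.25 differed between the arrays, and the adjusted p was 0.379 (limma). Ccl9, another Ccr1 ligand of macrophages, had log2 ratios of -0.53 and -0.14. Ccl3, made by activated macrophages and read by Ccr1, was dim and had -0.33 and -0.34. Ccl28, a ligand of mucosal epithelia for Ccr10, had -0.14 and -0.50.

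Macrophage markers had a lower median on the female than on the male array. All 13 on the array passed the filter. Against 19.7% of all features, 7 of them were below 0 on both arrays, and the medians of the 13 were -0.03 (male) and -0.42 (female). Their summed intensity was 157809 in the Rbpj-cKO and 161431 in the control channel on the male array, and 117262 and 158431 on the female array. The 7 included the tissue macrophage gene Mrc1 (-0.03 and -0.45), C1qa of the complement C1q complex (-0.14 and -0.59) and F13a1 (-0.45 and -0.68). The other 6 had unequal signs, among them Csf1r (0.38 and -0.47), Emr1 (0.10 and -0.02) and Cd14 (-0.03 and 0.16). None of the 13 markers passed the test (2 of 13 had an unadjusted p under 0.05, limma). Their part in the ratios of Ccl2, Ccl6, Ccl7, Ccl12 and Ccl24 was not tested.

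Only Ccl5 and Ccl19 of the CC ligands were above 0 on both arrays. Ccl5, a T cell and monocyte attractant, had 508 and 245 on the male array and 375 and 229 on the female array in the Rbpj-cKO and control channels. Both Rbpj-cKO values were above both control values, with log2 ratios of 1.05 and 0.71 and a mean of 0.88 ± 0.24 (SD, n = 2 arrays), and the adjusted p was 0.272 (limma). Agilent's processed signals gave Ccl5 a larger mean of 1.49, and the lowest adjusted p over all ways of processing was 0.0829. Ccl19, which guides T cells and dendritic cells through Ccr7, had 0.18 and 0.36 by its brightest probe. Its other probes gave 0.69 and 0.03, and 0.29 and 0.00, so the size depends on the probe.

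Ccl21a and Ccl21b, the lymphatic ligands of the same receptor, were higher in Rbpj-cKO than in control on the male array and slightly lower on the female array. Ccl21a had 51108 (Rbpj-cKO) and 14603 (control) on the male array and 28624 and 33260 on the female array, and log2 ratios of 1.81 and -0.22. Ccl21b, whose probe overlaps that of Ccl21a, had 1.61 and -0.24. The mean of 0.80 for Ccl21a was smaller than its SD of 1.43 between arrays. The lymphatic markers that passed the filter were 2 of 4, Pdpn with 0.66 and -0.45 and Lyve1 with -0.11 and -0.42, while Prox1, well above background in 2 of the 4 channels, and Flt4, in none, did not pass the filter. Pdpn and Lyve1 summed to 52035 in the Rbpj-cKO and 40976 in the control channel on the male array and to 41754 and 56590 on the female array. Lyve1 is also counted among the 13 macrophage markers, so this sum cannot be assigned to lymphatic vessels alone. All 7 T and NK cell markers tested had unequal signs, against 58.6% of all features. Above 0 on the male array only were Il7r (1.49 and -0.09), Cd3g (0.30 and -0.07), Nkg7 (0.11 and -0.12) and Thy1 (1.07 and -0.08), which stroma also makes. Cd3e (-0.10 and 0.24), Cd4 (-0.04 and 0.14) and Gzma (-0.56 and 0.37) ran the other way. The male control channels of Il7r and Cd3g were not well above background. An unadjusted p under 0.05 (limma) was found for 1 of the 7, and none passed the test. Thy1 gave most of the list's summed intensity, which was 30173 in the Rbpj-cKO and 15968 in the control channel on the male array and 17344 and 18040 on the female array. The part of these cells in the Ccl21a ratio was not tested.

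Ccl4, Ccl25 and Ccl27a had unequal signs and small means. Ccl4, an attractant of monocytes and T cells, had 0.25 and -0.20, Ccl25, the thymus and gut ligand of Ccr9, had 0.12 and -0.06, and Ccl27a, the skin ligand of Ccr10, had 0.31 and -0.14. A second Ccl25 probe gave -0.13 and 0.22, the opposite order, so no direction can be read for Ccl25. Ccl17, Ccl20 and Ccl22, with Ccl1 and Ccl26, were not tested: Ccl17 was well above background in 1 channel of each array, and the others in none.

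The CXC ligands had a median log2 ratio of 0.20 over 10 genes tested (male 0.40, female -0.01). Cxcl14, a ligand of epithelia and mesenchyme, had the highest mean of the members. Its intensity was 1325 (Rbpj-cKO) and 424 (control) on the male array and 346 and 268 on the female array. The Rbpj-cKO channel was the higher one on both arrays, but the log2 ratios of 1.64 and 0.37 lay far apart, and the adjusted p of the mean of 1.00 was 0.513 (limma). The female Rbpj-cKO value lay below the male control value, so the genotypes overlapped across arrays.

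Cxcl12, which holds stem cells and leukocytes in place through Cxcr4, had small ratios. It had 35301 and 31593 on the male array and 36030 and 30219 on the female array in the Rbpj-cKO and control channels. Both Rbpj-cKO values were above both control values, with log2 ratios of 0.16 and 0.25, and its second probe gave 0.08 and 0.36. Median centring, run instead of loess, gave 0.53 and -0.05, so the shared direction was lost. It did not pass the test (adjusted p 1.00, limma). Cxcl17, a ligand of mucosal surfaces, was dim, with its control channel well above background on the female array only, and had 0.43 and 0.19. With processed signals its female ratio was -0.16.

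Cxcl13 ran in opposite directions and had the widest spread of the members. Its intensity was 831 (Rbpj-cKO) and 397 (control) on the male array and 302 and 1140 on the female array. The control channels themselves lay 1140 against 397, and the log2 ratios were 1.06 and -1.92, with a mean of -0.43 and an SD of 2.11. Cxcl13 directs B cells through Cxcr5. Of 5 B cell markers only Cd79b was tested, with intensities of 1021 and 1150 in the Rbpj-cKO and 1212 and 1031 in the control channels. Of 6 mesothelial markers tested, 3 had unequal signs, against 58.6% of all features. These were Lrrn4 (1.01 and -1.63), Muc16 (1.18 and -0.21) and Wt1 (0.50 and -0.21). The other 3 were above 0 on both arrays, against 21.7% of all features. An unadjusted p under 0.05 (limma) was found for 0 of the 6. The part of B cells and mesothelium in the Cxcl13 ratio was not tested.

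Cxcl9, Cxcl10 and Cxcl11 are interferon-induced ligands of Cxcr3 and did not move together. Cxcl9 had -0.25 and -0.66, and its second probe -0.15 and -1.17. Cxcl10 had unequal signs with 0.34 and -0.57. Cxcl11 had 0.49 and -0.18 by the probe that shares bases with other genes, and -0.01 and -0.08 by its other probe. The second Cxcl11 probe thus does not repeat the male value of the first.

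Ligands that draw neutrophils through Cxcr2 were partly below background. Cxcl5 had intensities of 513 (Rbpj-cKO) and 615 (control) on the male array and 732 and 406 on the female array, and log2 ratios of -0.26 and 0.85. Most neutrophil markers also had the higher ratio on the female array, with a median over 9 genes of 0.19 (male) and 0.86 (female) and sums of 39073 and 91761 in the Rbpj-cKO and 35694 and 43047 in the control channels. Of the 9, 6 were above 0 on both arrays, against 21.7% of all features. An unadjusted p under 0.05 (limma) was found for 5 of the 9, against 708 of all 20989 features, and none passed the test. Elane (0.19 and 0.13) and Mmp8 (0.61 and 0.49) had the lower ratio on the female array. Their part in the Cxcl5 ratio was not tested. Cxcl1 was dim and had 0.38 and -0.01, and Cxcl2, Cxcl3 and Cxcl15 were well above background in no channel. Cxcl16, a membrane-bound ligand of Cxcr6, had 0.65 and -0.01.

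**Figure D3:**
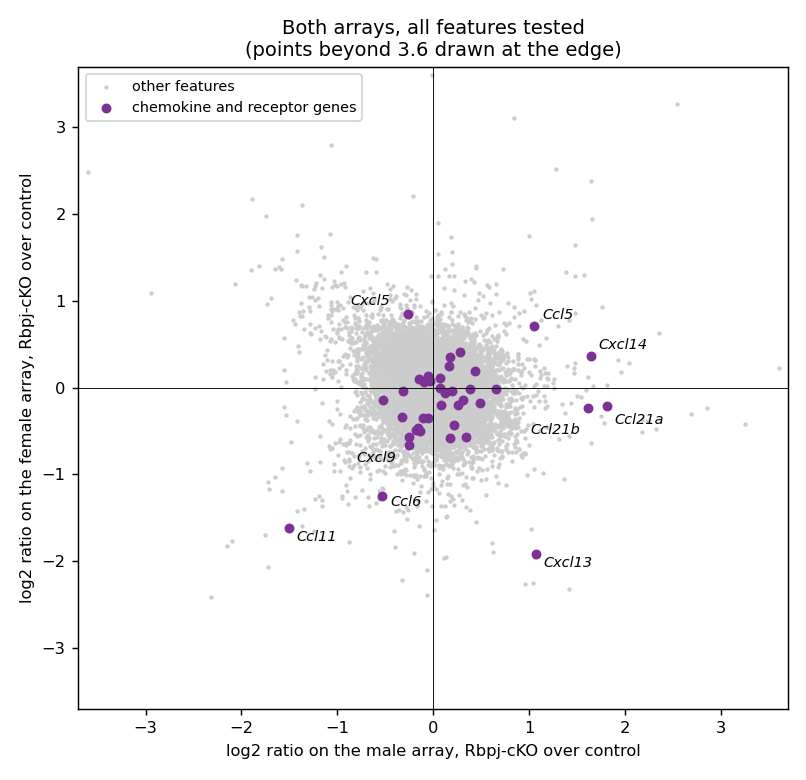
Log2 ratio of Rbpj-cKO over control on the male array (x axis) against the female array (y axis) for all 20989 features tested, with the 39 chemokine and receptor genes as large points and points beyond the frame drawn at its edge. Ccl11 lies in the lower left at -1.51 and -1.61, Ccl5 and Cxcl14 lie in the upper right, and Cxcl13, Ccl21a and Ccl21b lie to the lower right.

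The receptors had small mean ratios in the main processing, and none of the 12 tested passed the test (0 had an unadjusted p under 0.05, limma). Over 8 CC receptors tested the mean ratio ran from -0.23 to 0.34 with a median of 0.00, and over 4 CXC receptors from -0.11 to 0.08 with a median of 0.01. Ccr2, the receptor of Ccl2, Ccl7 and Ccl12 on monocytes, had -0.05 and 0.13. Ccr6, the receptor of Ccl20, had -0.10 and -0.35. Ccr4, a T cell receptor of Ccl17 and Ccl22, was above 0 on both arrays with 0.27 and 0.41. Both Ccr6 (intensities of 181 to 232) and Ccr4 (183 to 294) were dim. Processed signals gave them larger ratios, -0.21 and -0.70 for Ccr6 and 0.65 and 0.72 for Ccr4. The size of these ratios thus depends on the processing. Ccr9 had 0.07 and 0.11, Ccr7 -0.03 and 0.08, and Ccr8 0.08 and -0.19, and these were dim too. Ccr1, the receptor of Ccl6 and Ccl9, and Ccr10, the receptor of Ccl27a and Ccl28, were well above background in no channel.

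Cxcr7, a scavenger of Cxcl12 now named Ackr3, gave nearly equal channels. Its intensity was 22334 (Rbpj-cKO) and 21242 (control) on the male array and 21173 and 21145 on the female array, with log2 ratios of 0.07 and 0.00. Cxcr4, the signalling receptor of Cxcl12, had 465 and 515 on the male array and 462 and 430 on the female array, with -0.15 and 0.11. The values of both receptors thus overlapped between genotypes. Cxcr3 had 0.20 and -0.04, and Cxcr6 had 0.22 and -0.43, with a dimmer second probe at 0.17 and -0.60. Cxcr1, Cxcr2 and Cxcr5 were well above background in no channel.

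Other genes of the chemokine system, listed with earlier results of these data known, gave no call in either direction with limma. Of 43 on the array, 37 were tested, and 1 had an unadjusted p under 0.05 (limma), against 708 of all 20989 features. Of the 37, 11 were below 0 on both arrays, 8 above 0 on both and 18 had unequal signs, with a median of -0.06. Over all features the shares were 19.7%, 21.7% and 58.6%. Rarres2, the precursor of the attractant chemerin, had 0.49 and 0.47, and Cx3cl1, the membrane-bound ligand fractalkine, had 0.34 and 0.33. Both repeated closely under the dye swap. Cx3cr1, the fractalkine receptor of macrophages, had 0.02 and -0.81. The interleukin gene Il6 had -0.32 and -0.47. Il4ra and Stat6, through which interleukins induce eotaxin genes, had 0.20 and 0.13, and -0.13 and 0.32, and their part in the Ccl11 ratio was not tested. Il13, Il5, Tnf, Xcl1, Xcr1 and Cmklr1 were not well above background on both arrays in either genotype.

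**Figure D4:**
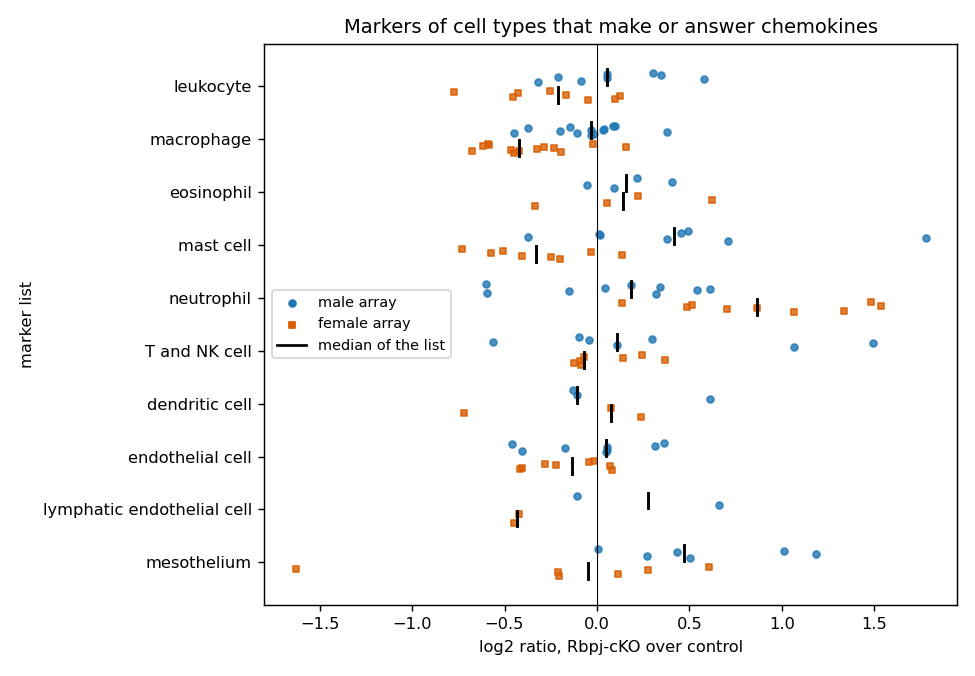
Log2 ratio of Rbpj-cKO over control of each tested marker gene (points) in 10 lists of cell types that make or answer chemokines, on the male array (circles) and the female array (squares), with the median of each list as a black bar. The macrophage medians are -0.03 and -0.42, and the neutrophil medians 0.19 and 0.86.

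Of whole-array facts, 66.8% to 71.1% of probe spots were well above background per channel, the median signal was 6.38 to 13.3 times the median background, and no spot was saturated. Of the 72 member spots, 55 were well above background in each channel of the male array, and 58 (Rbpj-cKO) and 57 (control) on the female array. Rbpj itself was lower on both arrays by its brighter probe, with -1.58 and -0.93 (adjusted p 0.0760, limma), and by its dimmer one with -0.42 and -1.12. All 8 urothelial and all 6 smooth muscle markers passed the filter. Of the 8 urothelial markers 6 were above 0 on both arrays, against 21.7% of all features, and 2 had unequal signs. Their medians were 0.28 (male) and 0.28 (female). An unadjusted p under 0.05 (limma) was found for 1 of the 8, on the higher side, and none passed the test. The part of the urothelium in the ratios of Ccl28, Cxcl14 and Cxcl17 was not tested. Of 6 kidney epithelium markers 3 passed it. Six2, a nephron progenitor gene, had 1.48 and 0.86 (adjusted p 0.102, limma), Cdh16 had 0.21 and 1.29, and Lrp2 had -0.29 and -0.18. Against 708 of all 20989 features, 2 of these 3 markers had an unadjusted p under 0.05 (limma). Their part in the member ratios was not tested. The precision of every value is limited by the number of arrays.

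Promoters were searched for 3 motifs because chemokine genes are known to be switched on through NF-kappaB and STAT6 and because Rbpj binds DNA. RefSeq windows on GRCm38.p6, the 250 bases before the gene start, were at hand for 37 of the 52 genes, as 41 promoters. Ccl11, Ccl2, Ccl7, Ccl24 and Ccl5 were among the genes not searched. TGGGAA, the core that RBPJ binds, was found on either strand in 9 of the 41, and in 21.6% of all 32851 promoters of that length. The STAT6 motif, TTC and GAA with 4 bases between them, was in 1 (2.4%, against 5.9%), that of Ccl17. The NF-kappaB motif, GGGA and TTCC with 2 bases between them, was in 6 (14.6%, against 1.2%): Ccl1, Ccr3, Cxcl1, Cxcl2, Cxcl3 and Cxcl10. In Ccl1 and Ccr3 it overlapped a TGGGAA match. A match describes letters only.

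The promoters of the neutrophil ligands Cxcl1, Cxcl2 and Cxcl3 and of the interferon-induced Cxcl10 are shown around the NF-kappaB motif, which capitals mark, as 30 bases read along each gene's own strand. Cxcl1 lies at chr5:90891164-90891193 (plus), Cxcl2 at chr5:90903792-90903821 (plus), Cxcl3 at chr5:90786018-90786047 (plus) and Cxcl10 at chr5:92349029-92349058 (minus).
Cxcl1: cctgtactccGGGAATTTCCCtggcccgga
Cxcl2: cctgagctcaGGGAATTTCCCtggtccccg
Cxcl3: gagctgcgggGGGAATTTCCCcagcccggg
Cxcl10: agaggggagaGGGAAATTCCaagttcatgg

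The motif is the same in Cxcl1, Cxcl2 and Cxcl3, where it matches on both strands at positions shifted by 1 base. Of these genes with the motif, Cxcl2, Cxcl3 and Ccl1 were well above background in no channel, and Cxcl1, Cxcl10 and Ccr3 had ratios of unequal sign.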

How the data were processed

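The deposited scanner files hold mean and background intensity per spot, which the submitters' processing notes credit to Agilent Feature Extraction 10.7.3.1. They also hold a processed intensity, background-subtracted and dye-normalized per the file headers, and the log10 of red over green. The making of the deposited series value table, 1 score per probe, is not stated. Its values follow the processed signals as signed folds, with Rbpj-cKO over control: 99.8% (male) and 99.9% (female) of 24991 single-spot probes above background matched within 0.001 on the log2 scale, and each column's median was 1.

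From the mean signals and median backgrounds, normexp (offset 50) and loess within arrays were run with limma 3.58.1 (R 4.3.3), with control spots at weight 0. Spots marked as outliers were left out (200 male, 274 female, of which 0 and 2 are member spots), and repeated spots were averaged. Probes well above background on both arrays in either genotype's channel were kept, and the brightest probe stood for its gene. Probes were named through RefSeq accessions where possible, which covered 60 of the 63 member probes. Ratios were turned to Rbpj-cKO over control and tested with lmFit and eBayes (1 residual and 10.3 prior degrees of freedom), with an adjusted p threshold of 0.05. The steps were tested on simulated data. Both arrays share a slide and a scan. Members above the filter are named, except 1 that is counted but not reported here. The members and lists were chosen with earlier results of these data known. Protein sequences were not analysed here.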

Additional observations from a re-analysis of the deposited data

Results flagged for a closer look

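Cxcl13 moved in opposite directions on the arrays, with log2 ratios of 1.06 (male) and -1.92 (female). The difference was not tested, since each sex has 1 array and the dyes are swapped between them.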

How the results depend on the processing

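Ccl11 was below control in each of the 8 alternative ways of processing both arrays, and on each array alone (-1.61 to -1.51). It stayed past the threshold with a normexp offset of 16, a filter on both channels, the mean of a gene's probes and an intensity trend (adjusted p 0.00392 to 0.0392, limma), and lost it with median centring (log2 ratio -1.50), processed signals (-1.60), the series value table (-1.60) and no filter on dim probes (-1.56). In those 4 settings 0 members and 0 features were called (limma; 4 to 8 members and 226 to 979 features had an unadjusted p under 0.05), against 27 features in the report, and the mean of probes gave 10 and the trend 41. The cause was not tested. The median of the members was -0.14 without replicate 1 and 0.079 without replicate 2. Of 39 members 35 kept their sign in every setting of both arrays that measured them. Cxcr4 turned to 0.0059 with median centring, Ccr2 to -0.047 and Cxcr7 to -0.014 with processed signals and with the series value table, and Ccl27a to -0.0056 with the mean of probes. Of the 20 members with 1 sign on both arrays, median centring gave Cxcl12, Cxcr7 and Ccr9 unequal signs, processed signals and the series value table did so for Cxcl17 and Cxcr7, and the other settings for none they measured. Median centring moved the median of all features to 0.17 (male) and -0.09 (female). The fit already uses the pairing of Rbpj-cKO and control, because each ratio is formed within an array. No further paired analysis was run, since there is 1 group of ratios. Signal over background limits the dim members: with processed signals Ccl8 was -0.78, Cxcl9 -1.22 and Cxcl17 0.92.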
